A study of Homo sapiens with 12 samples.

Results

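Direct targets of the transcription factor p53 that act in DNA repair, metabolism, growth arrest and cell death were followed in IMR5 cells whose nuclear export receptor XPO1 was inhibited or depleted. Rows were taken from the deposited tables by gene symbol, from 33 names that leave out the CDK inhibitor, MDM, BCL2 and death receptor families. Of these, 31 were listed in both tables, among 18962 gene symbols common to them. TRIM22 was listed in the selinexor table only. PERP was listed in neither, so only its promoter window was analysed.

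IMR5 is an established human neuroblastoma cell line in which the oncogene MYCN is amplified. Cells were grown with 100 nM selinexor for 24 h before RNA was taken, or with its solvent DMSO for a time that the labels do not give. For the knockdown, one siRNA sequence against XPO1 or a control siRNA was nucleofected, and cells were harvested 72 h later. All 4 groups were the same cell line, each held 3 libraries of strand-specific total RNA, and the labels leave unsaid whether replicates were separate cultures. The p-values therefore rest on the spread of these libraries alone, which may be technical, and in bulk RNA fewer cells of a type cannot be told apart from less RNA per cell.

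XPO1 carries proteins with a leucine-rich export signal out of the nucleus, and p53 is among its cargoes. Selinexor binds covalently in the cargo groove of XPO1 and blocks that export. Activated p53 binds DNA as a tetramer, on pairs of a short palindromic decamer in or near its target genes, and raises their transcription. Its best known outputs are arrest of the cell cycle and apoptosis, and some of the genes described here serve them. Others act in recognition and bypass of DNA lesions, supply of deoxynucleotides, control of growth signalling, redox and lysosomal metabolism, and signals to neighbouring cells.

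The p53 decamer is the DNA sequence that p53 binds, and the runs below show where matches to pairs of it lay close to the start sites of some members. The members were taken by name and not by this sequence. RefSeq promoter windows (GRCh38.p14, 250 bases before to 50 after the start) were matched by symbol for 26 of the 33 names. The decamer was searched on both strands by its consensus, which reads the same on each. It occurred without mismatch in 4 of 26 windows (15.4%), those of AEN, FDXR, PLK2 and RPS27L, against 6.54% of all 27303 windows. A pair of decamers with a spacer of up to 13 bases, the C and G of each core kept and at most 3 mismatches in all, occurred in 6 of 26 (23.1%), against 12.7% of all windows. Such a match is only a description of letters, and p53 elements can lie outside these windows. The 5 pairs that lay wholly upstream of the start are printed 5′ to 3′ on the strand of the gene, with the decamers in capitals.
AEN, chr15:88621301-88621330, plus strand: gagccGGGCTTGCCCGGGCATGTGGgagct
FDXR, chr17:74872996-74873025, minus strand: GGGCGGGCCCgggcaggagcGGGCTTGCCC
PLK2, chr5:58460193-58460221, minus strand: acaAGACTTGCTTcccGGCCACGCGCgct
RPS27L, chr15:63157522-63157551, minus strand: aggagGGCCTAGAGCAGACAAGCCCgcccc
ZMAT3, chr3:179071865-179071894, minus strand: ccGGGCCTGCTCcgccaaGCACATGCGCag
The AEN pair had no spacer and 2 mismatches, and began 34 bases upstream of the start. The FDXR pair had a spacer of 10 bases and 2 mismatches, and its second decamer ended 2 bases upstream of the start. The pairs of PLK2, RPS27L and ZMAT3 had 3 mismatches each. These coordinates are not those of the expression tables, which use hg19.

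Estimated depth was 26.9 to 33.8 M reads per selinexor library, 39.5 to 40.9 M per DMSO library, 33.5 to 55.8 M per XPO1 siRNA library and 40.6 to 54.0 M per control siRNA library. The XPO1 transcript fell 4.33-fold with XPO1 siRNA (limma adjusted p = 2.91e-14) and had a log2 fold change of 0.09 with selinexor, which did not pass (adjusted p = 0.623). Of 13 adrenergic neuroblastoma markers, 12 or 13 were listed and none of those was at 0. They summed to 91345 to 105415 normalized counts with selinexor and 75268 to 78092 with DMSO, and to 106012 to 113025 with XPO1 siRNA and 85514 to 87856 with control siRNA. Endothelial markers, 2 of 4 listed, summed to 66.6 to 91.2 with selinexor and 41.3 to 44.2 with DMSO, and to 78.6 to 93.8 with XPO1 siRNA and 41.4 to 53.2 with control siRNA. Of 6 leukocyte markers 1 was listed, at no more than 14.4 in any library, and no epithelial marker was listed. Fibroblast and mesenchymal markers summed to 3257 to 4691 normalized counts with selinexor, 5114 to 5318 with DMSO, 3292 to 3441 with XPO1 siRNA and 4524 to 4914 with control siRNA, mostly from FN1 and COL1A1. MYCN was the largest part of the adrenergic sums. Some means went against the sums. With selinexor, COL1A1 was higher (987 against 675 with DMSO) and GATA2 lower (227 against 297). With XPO1 siRNA, KDR (7.62 against 12.8 with control siRNA) and DBH (3351 against 3465) were lower. The part of these differences in the results was not tested. Selinexor replicate 1 stood apart, with a log2 correlation of 0.974 to replicate 2 and 0.977 to replicate 3, while that between replicates 2 and 3 was 0.991. RN7SL1 and RN7SL2 held 12.6% to 16.0% of the summed values with selinexor and 9.40% to 9.72% with DMSO, and 10.8% to 12.4% with XPO1 siRNA and 12.6% to 13.1% with control siRNA. Values below are the authors' normalized read counts, in the order of replicates 1, 2 and 3, and the 2 tables were normalized separately, so levels are compared only within a table. Fold changes come from log2(value + 1), so those of genes with low values are understated.

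Every member that could be tested was higher in both comparisons. Of the 31 genes with a mean of at least 10 normalized counts, 31 rose with selinexor and 31 with XPO1 siRNA (limma on all genes, Benjamini-Hochberg adjusted p under 0.05). Among all genes tested, 22.9% of 18128 were called higher and 26.3% lower with selinexor (49.2% in either direction), and 25.9% of 17616 were called higher and 28.6% lower with XPO1 siRNA (54.5% in either direction). For each of these members every treated library lay above every control library, as it did for 28.8% of all genes tested with selinexor and 29.2% with XPO1 siRNA. GDF15 passed the filter on low values only through its treated libraries and so had to differ. Without it the counts were 30 of 30. The median log2 fold change of the members was 2.08 with selinexor and 1.07 with XPO1 siRNA, where that of all genes was -0.01 with selinexor and 0.0024 with XPO1 siRNA. A log2 fold change of 1 or more was reached by 24 members with selinexor and 17 with XPO1 siRNA, beside 9.6% of all genes with selinexor and 3.3% with XPO1 siRNA that were called higher and changed by as much. When libraries were rescaled to equal totals, the knockdown calls over all genes were 6049 higher and 3647 lower, in place of 4561 higher and 5042 lower, and the members' counts stayed at 31.

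**Figure D1:**
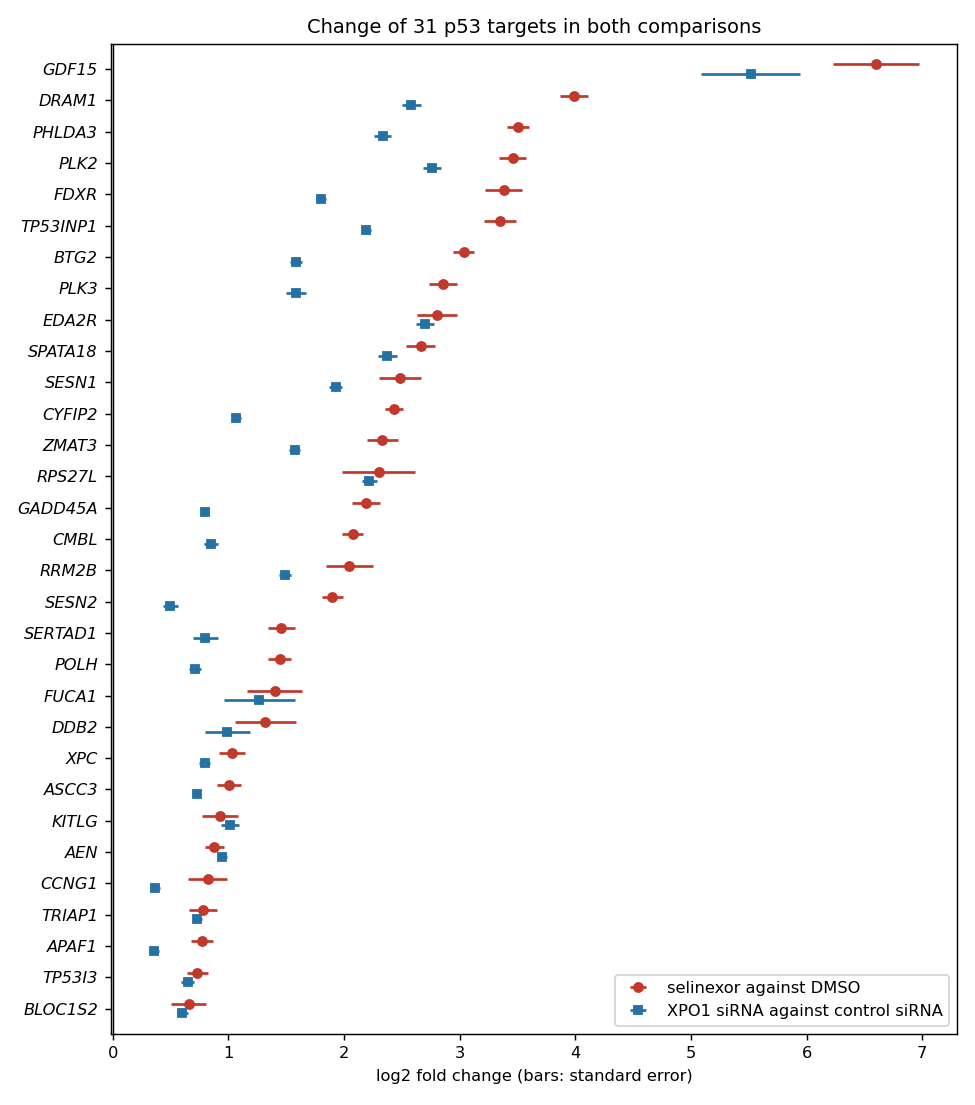
Log2 fold change (horizontal axis) of the 31 tested p53 targets (rows, ordered by the selinexor value) with selinexor against DMSO (red circles) and with XPO1 siRNA against control siRNA (blue squares); bars are standard errors, from 3 libraries per group. All points lie right of 0, from 0.66 for BLOC1S2 to 6.6 for GDF15 with selinexor and from 0.36 for APAF1 to 5.52 for GDF15 with XPO1 siRNA.

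Signals that leave the cell or enter it included the largest change of the set. GDF15 encodes a secreted cytokine of the TGF-beta superfamily that is released under stress. GDF15 (hg19 chromosome 19, 18485541 to 18499987, plus strand) read 389, 282 and 303 with selinexor and 2.58, 4.41 and 0.903 with DMSO. For GDF15 the XPO1 siRNA libraries read 92.9, 99.0 and 82.1 and the control siRNA libraries 0, 2.12 and 1.61. It was near silent in all control libraries and present in all treated ones. About 869 reads stood against 9 with selinexor and DMSO, a ratio of 122 after scaling (95% exact counting interval 63.9 to 268). The scaling used size factors estimated from the low values of each library. With XPO1 siRNA and control siRNA about 310 stood against 4, a ratio of 72.6 after the same scaling (28.1 to 268). These intervals cover counting error only. Ranked by log2 fold change, GDF15 had the 2nd largest rise of all genes tested with selinexor and the 3rd largest with XPO1 siRNA.

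EDA2R encodes the receptor of the ectodysplasin form EDA-A2. EDA2R (hg19 chromosome X, 65815479 to 65859109, minus strand) read 884, 1394 and 1381 with selinexor and 165, 180.0 and 166 with DMSO. For EDA2R the XPO1 siRNA libraries read 991, 928 and 912 and the control siRNA libraries 156, 132 and 147. Its treated libraries lay far above the controls in both tables, with selinexor replicate 1 the lowest of its group. It rose 6.98-fold with selinexor (SE 0.174 on the log2 scale, limma adjusted p = 7.97e-06) and 6.50-fold with XPO1 siRNA (SE 0.0792, adjusted p = 1.18e-11). KITLG, the ligand of the receptor tyrosine kinase KIT, rose 1.90-fold with selinexor and 2.02-fold with XPO1 siRNA. CYFIP2, a subunit of the WAVE complex that drives actin branching, rose 5.40-fold with selinexor and 2.10-fold with XPO1 siRNA. TRIM22, an interferon-inducible member of the tripartite motif family, read 15.6, 10.6 and 5.46 with selinexor and 0, 0 and 0 with DMSO. Its mean lay under the filter, so it has no test. About 28 reads stood in the selinexor libraries against 0 with DMSO. With the whole DMSO group set to a floor of 3 reads, TRIM22 was at least 11.8-fold higher after scaling by the estimated size factors. The exact counting interval for the same reads, which makes no use of that floor, has a lower 95% limit of 8.97.

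Among genes of the cell cycle and growth arrest, all 6 rose in both comparisons, with a median log2 fold change of 2.95 with selinexor and 1.58 with XPO1 siRNA. PLK2 and PLK3 are polo-like kinases of the stress response, unlike the mitotic PLK1. PLK2 (hg19 chromosome 5, 57749809 to 57756088, minus strand) read 2197, 2928 and 2678 with selinexor and 226, 243 and 233 with DMSO. For PLK2 the XPO1 siRNA libraries read 1308, 1246 and 1349 and the control siRNA libraries 213, 178 and 184. PLK2 rose 11-fold with selinexor (SE 0.117 on the log2 scale, limma adjusted p = 4.33e-07) and 6.78-fold with XPO1 siRNA (SE 0.0746, adjusted p = 6.31e-12), with no overlap between groups. PLK3 (hg19 chromosome 1, 45265897 to 45271663, plus strand) read 729.6, 748 and 744 with selinexor and 101, 116 and 88.5 with DMSO. For PLK3 the XPO1 siRNA libraries read 409, 446 and 421 and the control siRNA libraries 147, 135 and 141. PLK3 rose 7.25-fold with selinexor and 3.00-fold with XPO1 siRNA (SE 0.121 for selinexor and 0.0840 for XPO1 siRNA), and its 3 selinexor libraries lay close together.

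BTG2 encodes an antiproliferative protein that recruits the CCR4-NOT deadenylase to mRNA. BTG2 (hg19 chromosome 1, 203274619 to 203278731, plus strand) read 4154, 4843 and 4593 with selinexor and 573, 519 and 563 with DMSO. For BTG2 the XPO1 siRNA libraries read 2839.8, 2509 and 2706 and the control siRNA libraries 912, 862 and 912. The rise was 8.19-fold with selinexor and 2.99-fold with XPO1 siRNA. TP53INP1, which acts in arrest, apoptosis and autophagy, had the smallest adjusted p of all members in the knockdown. TP53INP1 (hg19 chromosome 8, 95938200 to 95961640, minus strand) read 7179.7, 10050.4 and 10141 with selinexor and 837, 891 and 921 with DMSO. For TP53INP1 the XPO1 siRNA libraries read 5139, 5216 and 5059 and the control siRNA libraries 1135, 1125 and 1106. Selinexor replicate 1 was the lowest of the selinexor libraries and still far above DMSO. TP53INP1 rose 10.2-fold with selinexor (SE 0.136 on the log2 scale, limma adjusted p = 9.68e-07) and 4.58-fold with XPO1 siRNA (SE 0.0367, adjusted p = 1.03e-13). SERTAD1, a binding partner of CDK4, rose 2.75-fold with selinexor and 1.74-fold with XPO1 siRNA. CCNG1, the cyclin G1 gene, had the smallest rise of this group, 1.77-fold with selinexor and 1.29-fold with XPO1 siRNA.

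**Figure D2:**
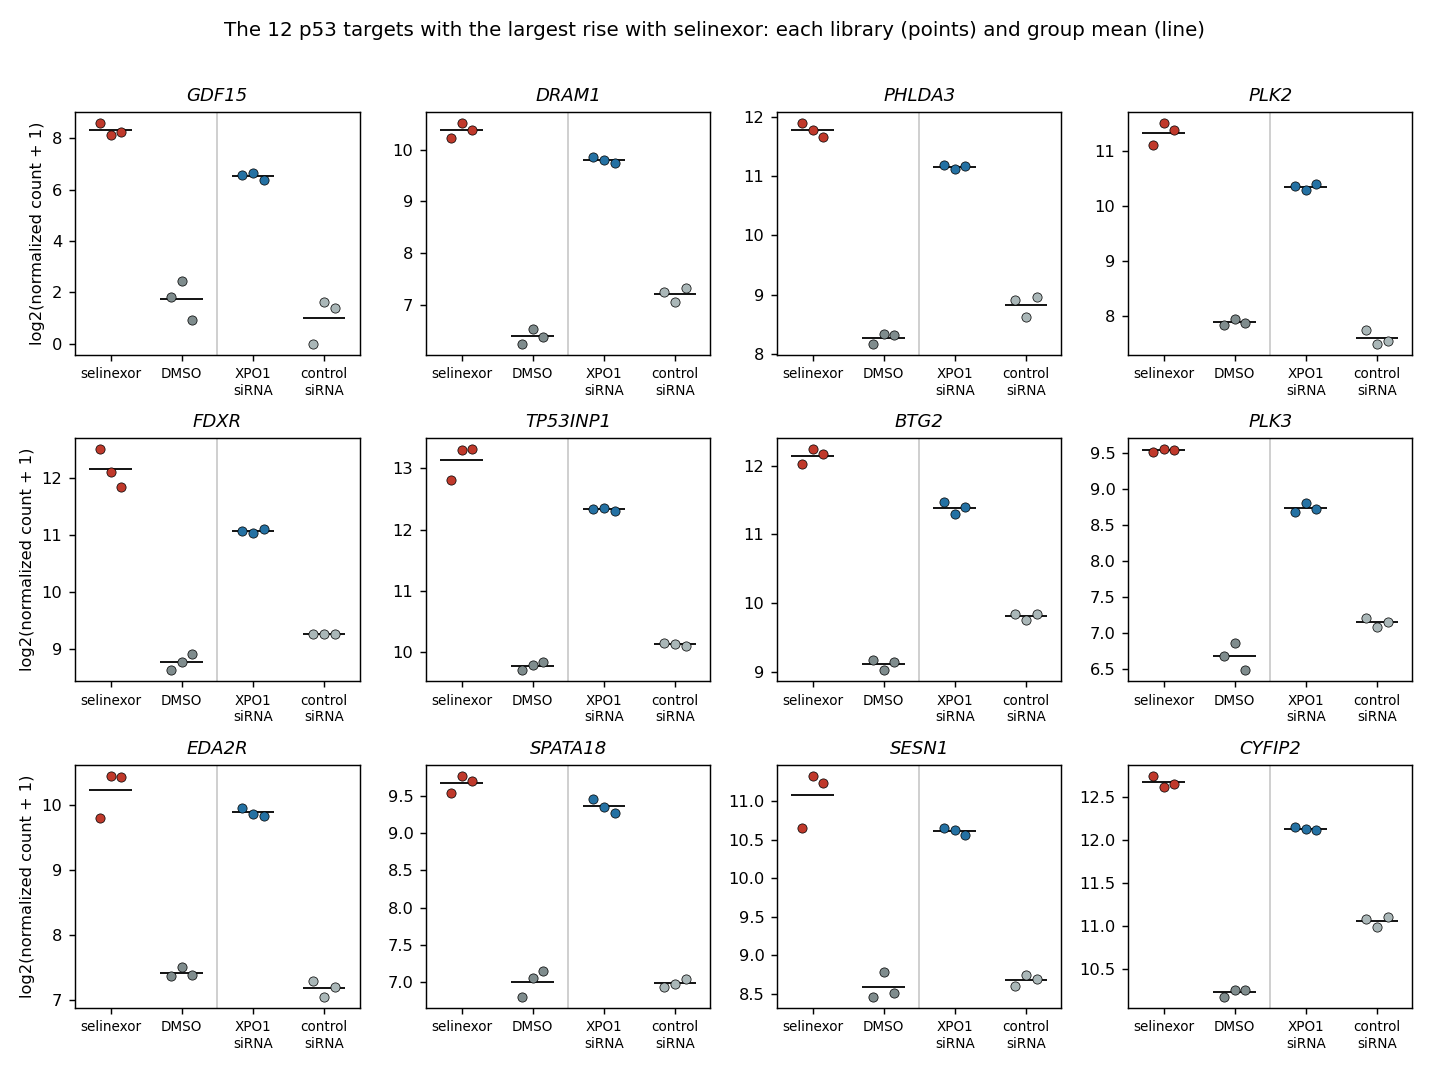
Normalized counts of the 12 p53 targets with the largest selinexor change, on a log2(value + 1) scale (vertical axis, which does not start at 0 and differs between panels), in the 12 libraries (points) with group means (lines). The grey line parts the 2 tables, which were normalized separately. In every panel the treated libraries lie above their own controls, and selinexor replicate 1 is the lowest of its group for DRAM1, PLK2, TP53INP1, BTG2, PLK3, EDA2R, SPATA18 and SESN1 and the highest for GDF15, PHLDA3, FDXR and CYFIP2.

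Genes of apoptosis, mitochondria and autophagy formed the largest group, in which all 9 tested members rose in both comparisons (median log2 fold change 2.30 with selinexor and 1.57 with XPO1 siRNA). DRAM1, a lysosomal membrane protein that promotes autophagy, had the widest change after GDF15 with selinexor. DRAM1 (hg19 chromosome 12, 102271129 to 102405909, plus strand) read 1190.4, 1465 and 1337 with selinexor and 74.8, 91.8 and 82.1 with DMSO. For DRAM1 the XPO1 siRNA libraries read 919.8, 884 and 850.1 and the control siRNA libraries 152, 132 and 159. It rose 15.9-fold with selinexor (SE 0.123 on the log2 scale, limma adjusted p = 3.79e-07) and 5.99-fold with XPO1 siRNA (SE 0.0821, adjusted p = 2.42e-11). PHLDA3, a pleckstrin homology domain protein that restrains AKT at the membrane, came next. PHLDA3 (hg19 chromosome 1, 201434620 to 201438366, minus strand) read 3823, 3512 and 3219 with selinexor and 287, 321 and 317 with DMSO. For PHLDA3 the XPO1 siRNA libraries read 2329, 2225 and 2313 and the control siRNA libraries 478, 393 and 496. Its groups were far apart in both tables, with changes of 11.4-fold with selinexor and 5.04-fold with XPO1 siRNA.

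SPATA18, known as Mieap, is linked to mitochondrial quality control. SPATA18 (hg19 chromosome 4, 52917497 to 52963459, plus strand) read 742, 871 and 831 with selinexor and 111, 132 and 141 with DMSO. For SPATA18 the XPO1 siRNA libraries read 704, 652 and 613 and the control siRNA libraries 121, 125 and 131. It rose 6.34-fold with selinexor and 5.19-fold with XPO1 siRNA. RPS27L is a paralog of the ribosomal protein gene RPS27, and how reads that match both were assigned is not given in the labels. RPS27L (hg19 chromosome 15, 63418071 to 63450221, minus strand) read 2572, 6933 and 5864 with selinexor and 945, 971 and 952 with DMSO. For RPS27L the XPO1 siRNA libraries read 4939, 4545 and 4506 and the control siRNA libraries 906, 1118 and 984. Selinexor replicate 1 lay well below the other selinexor libraries but above every DMSO library, and the 3 XPO1 siRNA libraries lay close together. RPS27L rose 4.92-fold with selinexor (SE 0.313 on the log2 scale, limma adjusted p = 5.30e-04) and 4.66-fold with XPO1 siRNA (SE 0.0647, adjusted p = 1.17e-11).

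ZMAT3, a zinc finger RNA-binding protein, rose 5.04-fold with selinexor and 2.97-fold with XPO1 siRNA. The rises were smaller for the nuclease gene AEN (1.84-fold with selinexor and 1.93-fold with XPO1 siRNA), TRIAP1, which helps move lipids between mitochondrial membranes (1.72-fold with selinexor and 1.66-fold with XPO1 siRNA), and APAF1, the scaffold of the apoptosome (1.71-fold with selinexor and 1.28-fold with XPO1 siRNA). BLOC1S2, a subunit of complexes that position lysosomes and related organelles, rose 1.58-fold with selinexor and 1.52-fold with XPO1 siRNA and had the smallest selinexor change of the set. Members of this role thus ran from 1.58-fold to 15.9-fold with selinexor.

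The 6 genes of DNA repair and nucleotide supply all rose in both comparisons, with a median log2 fold change of 1.38 with selinexor and 0.80 with XPO1 siRNA, the lowest of the 5 roles. RRM2B, the p53-inducible small subunit of ribonucleotide reductase (chromosome 8), rose 4.13-fold with selinexor and 2.81-fold with XPO1 siRNA. GADD45A, a stress sensor that binds PCNA and p21, rose 4.56-fold with selinexor and 1.74-fold with XPO1 siRNA. POLH, the polymerase that copies past ultraviolet lesions, rose 2.72-fold with selinexor and 1.64-fold with XPO1 siRNA. The damage recognition gene XPC rose 2.05-fold with selinexor and 1.74-fold with XPO1 siRNA, and ASCC3, a helicase of alkylation repair, 2.01-fold with selinexor and 1.66-fold with XPO1 siRNA. DDB2, which finds ultraviolet lesions with DDB1, was low throughout. It read 67.2, 97.2 and 64.4 with selinexor and 23.2, 40.6 and 27.1 with DMSO, and 104, 78.6 and 78.6 with XPO1 siRNA and 52.6, 44.6 and 33.8 with control siRNA. Its groups did not overlap, and the change was 2.49-fold (SE 0.263 on the log2 scale, limma adjusted p = 0.00374) with selinexor and 1.99-fold (SE 0.195, adjusted p = 7.27e-04) with XPO1 siRNA.

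The 6 genes of metabolism and redox rose in both comparisons as well, with a median of 1.99 on the log2 scale with selinexor and 1.06 with XPO1 siRNA. FDXR, the mitochondrial reductase that passes electrons from NADPH to ferredoxin, changed most. FDXR (hg19 chromosome 17, 72858619 to 72869157, minus strand) read 5796, 4397 and 3683 with selinexor and 395, 435 and 479 with DMSO. For FDXR the XPO1 siRNA libraries read 2147, 2099 and 2212 and the control siRNA libraries 617, 617 and 613. Here selinexor replicate 1 was the highest of the selinexor libraries. FDXR rose 10.4-fold with selinexor (SE 0.160 on the log2 scale, limma adjusted p = 2.25e-06) and 3.49-fold with XPO1 siRNA (SE 0.0447, adjusted p = 2.87e-12).

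The sestrins SESN1 and SESN2 restrain the growth kinase mTORC1 when nutrients are short or cells are stressed. SESN1 rose 5.60-fold with selinexor and 3.81-fold with XPO1 siRNA. SESN2 (hg19 chromosome 1, 28586038 to 28609003, plus strand) read 1217, 1231 and 1166 with selinexor and 298, 347 and 323 with DMSO. For SESN2 the XPO1 siRNA libraries read 638, 648 and 585 and the control siRNA libraries 444, 436 and 440.0. Its libraries did not overlap in either table, but the XPO1 siRNA libraries lay much nearer to their controls than the selinexor libraries did. SESN2 rose 3.73-fold with selinexor (SE 0.0935 on the log2 scale, limma adjusted p = 2.63e-06) and 1.41-fold with XPO1 siRNA (SE 0.0626, adjusted p = 1.51e-05). CMBL, a hydrolase of the liver and gut, rose 4.22-fold with selinexor and 1.80-fold with XPO1 siRNA. TP53I3, a quinone oxidoreductase, rose 1.66-fold with selinexor and 1.57-fold with XPO1 siRNA. FUCA1, a lysosomal fucosidase, was low, at 48.0, 48.6 and 34.9 with selinexor and 16.3, 16.8 and 14.4 with DMSO; in the knockdown table it was at 28.3, 42.9 and 31 with XPO1 siRNA and 17.9, 14.9 and 8.86 with control siRNA. FUCA1 rose 2.64-fold with selinexor and 2.41-fold with XPO1 siRNA.

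Levels between genes were compared per kilobase of the longest protein-coding transcript, as the percentile of a gene's mean normalized count per kilobase among the tested genes that have a length. The median member stood at percentile 85.0 with selinexor and 44.4 with DMSO, and at 70.5 with XPO1 siRNA and 46.0 with control siRNA. CCNG1, AEN, TRIAP1 and XPC were the highest with DMSO, at percentiles 92.0, 91.1, 87.8 and 81.7. GDF15 was the lowest of the members with DMSO, at percentile 1.69, and stood at 28.6 with XPO1 siRNA and 0.241 with control siRNA. DDB2 stood at 22.1 with selinexor and 14.6 with DMSO, and FUCA1 at 14.4 with selinexor and 7.98 with DMSO.

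Whether the drug and the knockdown changed the members by different amounts was tested as the difference of the 2 effects over all 12 libraries. The change with selinexor was larger for 15 members, and for none was it smaller (limma on 17308 genes, adjusted p under 0.05). Among all genes 11.6% were called in the positive direction and 20.2% in the negative, 31.8% in either. The median difference of the members was 0.56 on the log2 scale, against -0.07 over all genes. Leaving out selinexor replicate 1 raised the count to 23. Dose, time (24 h against 72 h) and means of delivery differ between the arms and cannot be told apart from drug against knockdown.

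The largest differences were those of FDXR at 1.58 (SE 0.178, limma adjusted p = 2.94e-05), BTG2 at 1.45 (SE 0.104), DRAM1 at 1.41 (SE 0.149) and SESN2 at 1.40 (SE 0.104). GADD45A (1.39), CYFIP2 (1.37), PLK3 (1.27), CMBL (1.23), PHLDA3 (1.17) and TP53INP1 (1.16) also passed with differences above 1, which makes 10 such members, beside 4.28% of all genes called with a difference as large. The remaining 5 were ZMAT3 (0.76), POLH (0.73), PLK2 (0.70), SERTAD1 (0.65) and APAF1 (0.41). The log2 change with XPO1 siRNA was 26.3% of that with selinexor for SESN2, 36.5% for GADD45A and 41% for CMBL, where the median member was at 72.8%. By role, 5 of 6 genes of the cell cycle and growth arrest passed, 3 of 6 of metabolism, 2 of 6 of repair, 4 of 9 of apoptosis and autophagy and 1 of 4 of the ligands, receptor and others. Among all genes 11.6% were called in this direction and 31.8% in either, and the roles were not tested against each other.

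For 16 members the difference did not pass the threshold, which does not show equal changes. Unadjusted 95% intervals lay wholly above 0 for 4 of them, SESN1 (0.12 to 0.99), RRM2B (0.06 to 1.05), CCNG1 (0.04 to 0.86) and ASCC3 (0.03 to 0.51), whose adjusted p ran from 0.0520 to 0.0840. Intervals were narrow around 0 for AEN (difference -0.07, 95% interval -0.27 to 0.13), TP53I3 (0.08, 95% interval -0.14 to 0.31) and TRIAP1 (0.05, 95% interval -0.24 to 0.34). They were wide for GDF15 (1.08, 95% interval -0.23 to 2.40), RPS27L (0.08, 95% interval -0.70 to 0.86) and FUCA1 (0.13, 95% interval -0.71 to 0.97). For EDA2R the interval ran from -0.34 to 0.54, and for KITLG from -0.48 to 0.30. Across the 31 members the log2 fold changes of the 2 comparisons had a Pearson correlation of 0.91 and a Spearman correlation of 0.87, and without GDF15 a Pearson correlation of 0.85. Over all 17308 genes tested in both, the Pearson correlation was 0.64. These describe genes, which are not independent replicates, and the arms share no library.

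**Figure D3:**
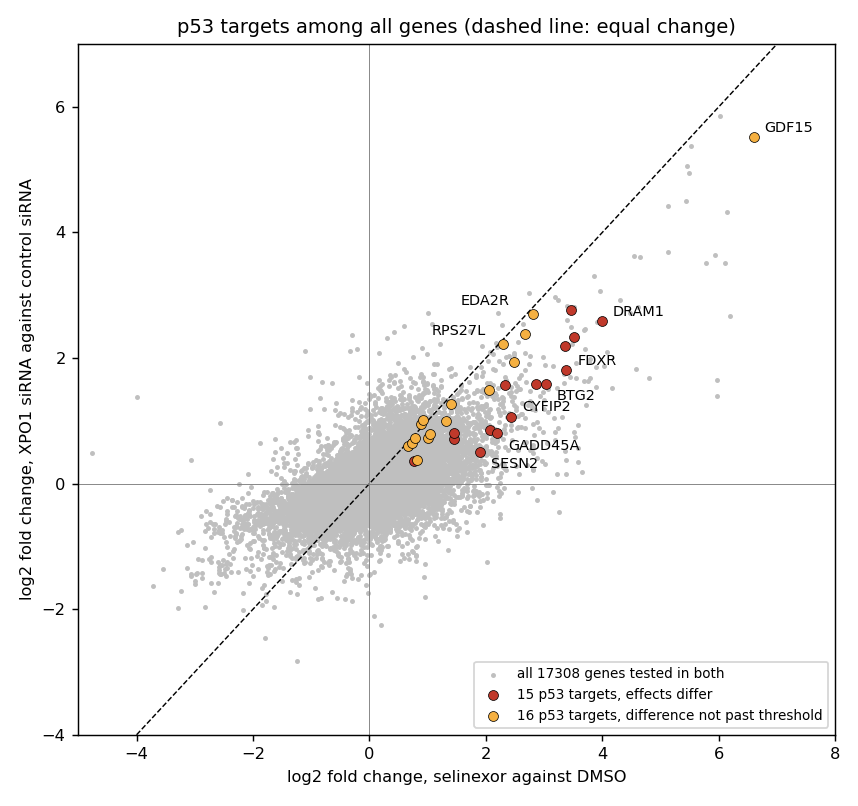
Log2 fold change with selinexor against DMSO (horizontal axis) and with XPO1 siRNA against control siRNA (vertical axis) for 17308 genes (grey) and 31 p53 targets, of which 15 had effects that differ (red) and 16 did not pass (yellow). The p53 targets all lie right of 0 and above 0, and the red ones lie below the dashed line of equal change.

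Selinexor replicate 1 departed from its group along the GC content of the members' transcripts. Against the mean of replicates 2 and 3 it was lower for 21 members and higher for 10, and over all genes with a GC value lower for 7778 and higher for 6999. The departure was -1.31 on the log2 scale for RPS27L, -0.81 for RRM2B, -0.65 for EDA2R and -0.65 for CCNG1, and 0.53 for FDXR, 0.41 for GDF15 and 0.37 for XPC. Its departure and the GC content had a Pearson correlation of 0.76 and a Spearman correlation of 0.84 over the 31 members, and a Pearson correlation of 0.50 and a Spearman correlation of 0.62 over 14777 tested genes, which share the library and its depth. GC content ran from 36.4% for RRM2B to 64.3% for FDXR. The members whose 2 effects differed had a median GC content of 49.7%, and those whose difference did not pass had 43.9%. The count of 31 called with selinexor was the same with the GC trend of each library removed and without selinexor replicate 1. The count of 31 with XPO1 siRNA was the same with the GC trend removed, and its fit holds no selinexor library. The count of members whose effects differed was 20 with the GC trend removed, with RRM2B (0.79), SESN1 (0.68), CCNG1 (0.67), ASCC3 (0.47) and SPATA18 (0.40) added.

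**Figure D4:**
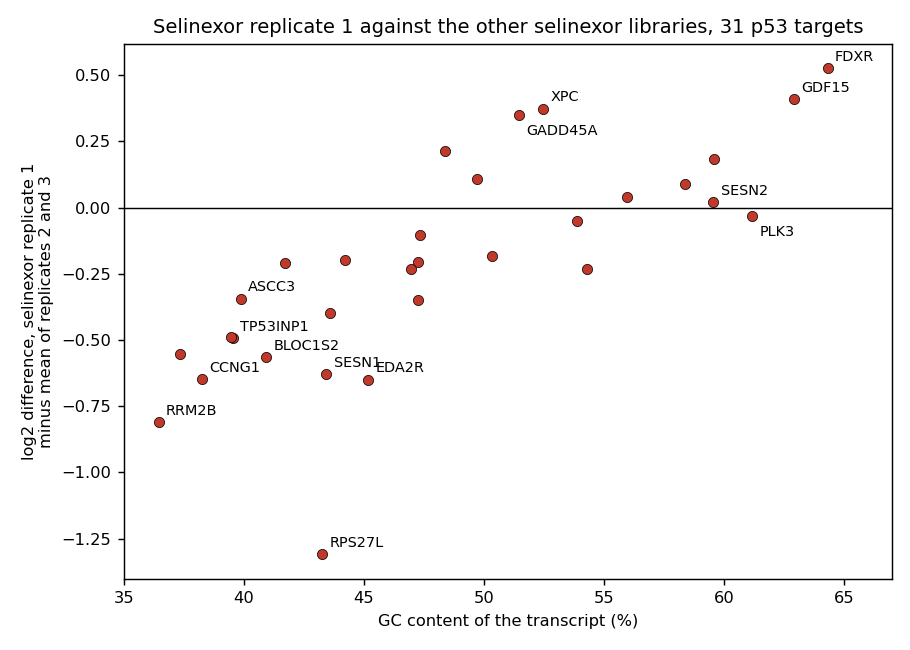
Log2 difference between selinexor replicate 1 and the mean of selinexor replicates 2 and 3 (vertical axis) against the GC content of the longest protein-coding transcript in percent (horizontal axis) for 31 p53 targets (points). Members of low GC content lie below 0, with RPS27L lowest at -1.31, and FDXR, of the highest GC content, lies at 0.53.

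Other reported p53 targets, from a list of 66 names, mostly moved the same way. With selinexor 46 of 54 tested genes rose and 1 fell (median log2 fold change 1.19), and with XPO1 siRNA 38 of 52 rose and 4 fell (median 0.70), beside 22.9% of all genes called higher with selinexor and 25.9% with XPO1 siRNA. CDKN1A, the gene of the CDK inhibitor p21, rose 43.1-fold with selinexor and 22.6-fold with XPO1 siRNA, more than every member but GDF15. TNFRSF10B, a receptor of the death ligand TRAIL, rose 4.00-fold with selinexor and 2.80-fold with XPO1 siRNA, and HSPA4L, a chaperone gene, 6.34-fold with selinexor and 3.5-fold with XPO1 siRNA. BBC3, which encodes the apoptosis inducer PUMA, rose 24.4-fold with selinexor and 7.02-fold with XPO1 siRNA, and MDM2, the ubiquitin ligase of p53, 3.98-fold with selinexor and 2.40-fold with XPO1 siRNA. Of 52 tested for the difference of effects, 31 had a positive difference and 1 a negative one, beside 11.6% and 20.2% of all genes. Among those with the smallest p were CDKN1A, BBC3 and GLS2, a glutaminase gene. GLS2 rose 9.30-fold with selinexor and 2.87-fold with XPO1 siRNA.

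Some members also answer to other factors, and the genes known for those factors were counted beside them. Over all genes tested, 22.9% were called higher and 26.3% lower with selinexor, and 25.9% higher and 28.6% lower with XPO1 siRNA. GDF15 and SESN2 are targets of the stress factor ATF4 as well. Of 16 tested ATF4 targets outside the set, 10 fell and 4 rose with selinexor, and 14 fell and 1 rose with XPO1 siRNA, with medians on the log2 scale of -1.11 with selinexor and -0.65 with XPO1 siRNA. PHGDH and PSAT1, enzymes of serine synthesis, fell 4.15-fold and 3.04-fold with selinexor and 1.92-fold and 1.82-fold with XPO1 siRNA. The mitochondrial enzyme gene SHMT2 and the amino acid transporter gene SLC7A5 fell 2.65-fold and 3.13-fold with selinexor and 1.42-fold and 1.51-fold with XPO1 siRNA. The asparagine synthetase gene ASNS and the folate enzyme gene MTHFD2 fell 2.52-fold and 2.50-fold with selinexor and 1.70-fold and 1.53-fold with XPO1 siRNA. For DDIT4 and ATF3 the difference of effects was positive, at 1.77 and 1.27, as both rose with selinexor and fell with XPO1 siRNA. Their log2 fold changes were 0.65 and 0.60 with selinexor and -1.12 and -0.67 with XPO1 siRNA. For SLC7A5 and SHMT2 the difference was negative, at -1.05 and -0.90. BTG2, PLK2 and PLK3 are also immediate early genes, of which 15 of 22 others rose and 2 fell with selinexor, and 7 of 20 rose and 3 fell with XPO1 siRNA. ARC, an activity-induced synaptic gene, rose 17.9-fold with selinexor and 2.86-fold with XPO1 siRNA, and the phosphatase gene DUSP6 5.09-fold with selinexor and 3.13-fold with XPO1 siRNA. The transcription factor genes EGR1 and FOS rose 14.9-fold and 9.13-fold with selinexor, and 3.61-fold and 1.62-fold with XPO1 siRNA. JUN and KLF6 fell 1.45-fold and 1.66-fold with XPO1 siRNA. With selinexor KLF6 fell 2.05-fold and JUN did not pass. SESN1 and GADD45A are targets of FOXO factors too. Of 14 other FOXO targets, 9 rose and 3 fell with selinexor, and 7 rose and 5 fell with XPO1 siRNA, with FBXO32, a ubiquitin ligase gene of muscle wasting, up 5.61-fold with selinexor and 4.24-fold with XPO1 siRNA, and TXNIP, an inhibitor of thioredoxin, up 2.62-fold with selinexor and 2.29-fold with XPO1 siRNA. IRS2, an insulin receptor substrate, and the cyclin gene CCNG2 rose 3.15-fold and 2.61-fold with selinexor and 1.57-fold and 1.30-fold with XPO1 siRNA. The antioxidant genes CAT and SOD2 fell 1.61-fold and 1.62-fold with selinexor and 1.47-fold and 1.37-fold with XPO1 siRNA. The sestrin gene SESN3 and the regulator gene CITED2 had positive differences of effects, at 1.21 and 0.73. Their log2 fold changes were 1.05 and 0.58 with selinexor and -0.16 and -0.14 with XPO1 siRNA, where CITED2 did not pass. The part of these factors in the members' changes was not tested.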

How the data were processed

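Strand-specific total RNA libraries of IMR5 cells were grouped by their titles into 4 groups of 3. The deposited values are a signal, gene read counts that the authors divided by a size factor per library, separately in each table. The submitters' processing notes name hg19, the aligner STAR 2.7.3a, Partek and DESeq2; annotation, read counting and strand use were recorded as not given in the sources used here. Listed intervals of 17 of 32 members overlapped another gene's, and reads there may be shared. Of these, 4 overlapped on the same strand, each with an interval listed for a small nucleolar RNA (GDF15, PHLDA3, TRIAP1 and KITLG). The intervals listed for SNORA70 and SNORA26 each reach over several distant members, so an overlap with them does not show that reads are shared. The count of 17 includes such overlaps. In the knockdown table, 3 columns of values matched none of the samples and were not used.

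Reads per library were estimated from the step of the low values, of which 61.8% to 66.6% were whole multiples within 0.02, so no count model was fitted. Genes with a mean of at least 10 entered limma 3.58.1 (R 4.3.3, intensity trend, group as the only term, two-sided, Benjamini-Hochberg over all genes) on log2(value + 1), within each table. The difference of effects used 4 group means over 12 libraries. The fit within each table was tested on simulated data in which all libraries had the same spread, unlike selinexor replicate 1. The difference of effects, the removal of the GC trend and the promoter search were not tested in this way. GC content and length came from the longest protein-coding transcript in GENCODE 29. Other steps ran in Python 3.11.15 (numpy 2.4.6, pandas 2.3.3, matplotlib 3.10.9, scipy 1.17.1).

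Members, roles and the 4 gene lists were chosen with earlier results of these data known. Values in each library are given for the 8 largest rises per comparison, members under the filter, members not called or with opposite signs, and the 4 largest called differences in each direction (none was negative); DDB2 and FUCA1 were added after their values were seen. Of the other lists, the 4 genes with the smallest p per comparison are named, except 1 that is not reported here. Alternatives were leaving out each replicate, the replicate number as a block, equal totals, 30% trimmed means, a minimum mean of 50 or none, a pseudocount of 0.5 or 5, limma without its trend, and a log2 threshold of 1; removal of the GC trend was added after the data were seen.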

Additional observations from a re-analysis of the deposited data

How the results depend on the processing

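Each of the 31 tested members kept its direction and its call with selinexor (464 values over the alternatives) and with XPO1 siRNA (463 values) under every alternative that gave it a value; with no filter TRIM22 was called too, 32 in all. At a log2 change of at least 1, 17 members were called with XPO1 siRNA, and 15 other p53 targets; over all genes 2742, 851 and, for the difference of effects, 1255 genes were called. The members' median was 2.22 with selinexor after GC removal. With XPO1 siRNA it was 1.02 at a mean of at least 50, 1.16 with equal totals and 1.0 to 1.13 with each replicate left out. For the difference of effects no member's call was lost under any alternative that refits it, 10 of the 15 had a log2 difference of at least 1, and 22 of 649 values gained a call, among them GDF15 with a pseudocount of 5 (1.49) or without control siRNA replicate 1 (1.59). Leaving out each replicate gave 15 to 23 members, the highest without selinexor replicate 1, where RPS27L (0.52), RRM2B (0.83), SESN1 (0.76), CCNG1 (0.67), ASCC3 (0.39), SPATA18 (0.36), EDA2R (0.32) and BLOC1S2 (0.24) passed. Replicate numbers gave no clear sign of pairing: correlations of same-numbered deviations ran from -0.104 to 0.119, and not every library correlated best with its own number. With 3 libraries per group these values cannot settle whether the samples were paired. With a replicate block 31 members were called with selinexor, 31 with XPO1 siRNA and 16 for the difference. Depth limits DDB2, FUCA1, GDF15 in controls and TRIM22 most.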
